A study of Mus musculus with 5 samples.

Results

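The genes described here are the ligands, receptors and latent binding proteins of TGF-beta: Tgfb1, Tgfb2, Tgfb3, Tgfbr1, Tgfbr2, Tgfbr3, Ltbp1, Ltbp2, Ltbp3 and Ltbp4. They were taken by gene symbol and are 10 of the 23478 genes in the count table. All 10 were found there, and all 10 passed the filter on low counts that left 15298 genes for testing. RNA-Seq had been made from GFP-sorted cells of P6 mouse lung, in 5 libraries, to ask how loss of the IGF1 receptor alters lung fibroblasts while alveoli form. All pups carried Gli1creER, a Cre that is active only after tamoxifen and only in cells expressing Gli1, and Rosa-EGFP, a reporter switched on by Cre, and received 100 µg of tamoxifen per pup on P0 and on P1. The 2 Control libraries came from pups with 1 floxed and 1 wild-type Igf1r allele (Igf1r Flox/Wildtype). The 3 Mutant libraries came from pups with 2 floxed alleles (Igf1r Flox/Flox). Control cells thus keep 1 copy of Igf1r when Cre is active, Mutant cells can lose both, and no library came from cells with an intact receptor gene. The methods give a mixed genetic background and both sexes. The labels do not say whether libraries of a genotype came from separate pups, so p-values measure the spread between these libraries, part of which may be technical.

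TGF-beta is secreted in a latent form. Each ligand stays bound to its own cleaved propeptide, most often with a latent TGF-beta binding protein (LTBP) that ties the complex to fibrillin and fibronectin in the matrix, and integrins, thrombospondin-1 or proteases release it. Free ligand joins the type II receptor TGFBR2, which activates the type I receptor TGFBR1, and SMAD2 and SMAD3 then carry the signal to the nucleus. The pathway drives matrix production and contractile gene expression in fibroblasts, and LTBP family members also take part in elastic fiber assembly in the postnatal lung.

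The targeted gene was lower in every Mutant library. Igf1r had 324 CPM (counts per 1e6, scaled with edgeR's TMM factors) in both Control libraries, and 139.7, 177 and 194 CPM in Mutant libraries 1, 2 and 3. The log2 fold change, Mutant against Control here and throughout, was -0.93. Library totals ranged from 35116766 to 37597857 counts, and the lowest count of any of the 10 genes in any library was 2436, so counting error was small beside the spread between libraries. Between libraries of 1 genotype, the chi-square of the counts was 24.4 to 53.4 per degree of freedom, where counting noise alone gives about 1. No gene of the 15298 had an adjusted p under 0.05 in edgeR's quasi-likelihood test, while 1897 had an unadjusted p under 0.05 (1032 lower and 865 higher, or 744 and 1343 with libraries scaled by their totals), and DESeq2 called 200. All 10 fibroblast markers were measured, with a summed level of 54964 and 54990 CPM in Control libraries and 54539, 40377 and 43582 CPM in Mutant libraries, all below both Control libraries, and 9 of the 10 had a negative log2 fold change (median -0.19). Defining markers of other cell types were low but not at 0: Epcam of epithelium had 1.92 to 5.10 CPM, Pecam1 of endothelium 40.2 to 120 CPM and Ptprc of leukocytes 12.2 to 31.1 CPM. Whole marker lists summed to more, at 525 to 1157 CPM for epithelium, 291 to 829 CPM for endothelium and 226 to 626 CPM for hematopoietic cells. Xist, expressed in female cells, had 0.302 to 4.09 CPM in both Control libraries and Mutant library 2, 170 CPM in Mutant library 1 and 435 CPM in Mutant library 3, so that sex and genotype were partly joined.

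Levels of different genes were compared per length, as CPM per kb of annotated exon. Ltbp4, whose product binds latent TGF-beta and elastic fibers, had the highest level of the 10 genes, 344 ± 62.0 CPM per kb (SD, n = 5 libraries). Ltbp2 followed with 204 ± 41.3 CPM per kb, and Tgfbr2 with 145 ± 27.8 CPM per kb. A middle group held Tgfb3 at 82.9 ± 20.9, Tgfb2 at 75.01 ± 11.99, Ltbp3 at 55.8 ± 1.66 and Tgfbr3 at 48.1 ± 17.5 CPM per kb. The lowest levels were those of Ltbp1 at 18.6 ± 0.443, Tgfbr1 at 16.2 ± 0.962 and Tgfb1 at 15.7 ± 1.52 CPM per kb. The libraries' ranges of neighbouring genes in this order did not overlap between Ltbp4 and Ltbp2, between Tgfbr2 and Tgfb3, between Tgfbr3 and Ltbp1, or between Ltbp1 and Tgfbr1. Every other neighbouring pair overlapped, so the order within the middle group was not separated by the spread. With the length of the longest transcript in place of all exons, 5 of the 10 genes kept their place, with Ltbp4, Ltbp2 and Tgfbr2 still first.

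**Figure D1:**
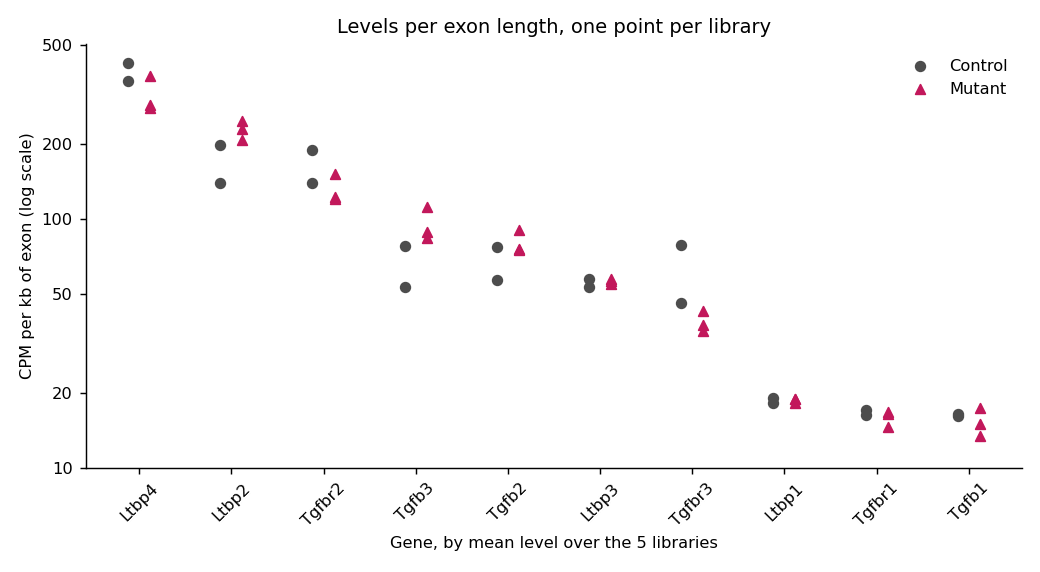
Level of each gene in CPM per kb of exon on a log axis, 1 point per library (circles, 2 Control; triangles, 3 Mutant), with genes ordered by their mean over the 5 libraries. Ltbp4 lies at the top with 278 to 424 CPM per kb, and Ltbp1, Tgfbr1 and Tgfb1 form a group at the bottom between 13.4 and 19.1 CPM per kb.

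By level, 3 of the 10 genes had an unadjusted p under 0.05: Tgfbr3 was lower in Mutant libraries, and Tgfb3 and Ltbp2 were higher. The share over all genes tested was 12.4%, of which 6.75% were lower and 5.65% higher. The same 3 genes were the only ones whose Control and Mutant libraries did not overlap, which held for 31% of all genes (14.9% lower and 16% higher). Adjusted over all genes, none of the 10 passed: the adjusted p of edgeR ran from 0.354 to 0.992, and DESeq2 called none of the 10 at an adjusted p under 0.05, against 1.7% of the 11735 genes to which it gave an adjusted p. The median log2 fold change of the 10 genes was -0.033, with 4 positive and 6 negative, beside 0.015 over all genes. Under the criterion of the study (absolute log2 fold change of at least 0.5 and unadjusted p under 0.05, here with CPM per kb over 1 in place of FPKM), 2 of the 10 genes were taken, Tgfb3 and Tgfbr3, where 4.7% of all genes were. Without Control library 1, none of the 10 genes had an unadjusted p under 0.05, where 2.76% of all genes still did. That library lay farther from the Mutant mean than Control library 2 did for 9 of the 10 genes, as for 66.6% of all genes, and for 8 of the 10 the gap between the Control libraries was wider than the gap between the genotypes, as for 51.5% of all genes. In sorted bulk cells, fewer cells of a type and less RNA per cell cannot be told apart.

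**Figure D2:**
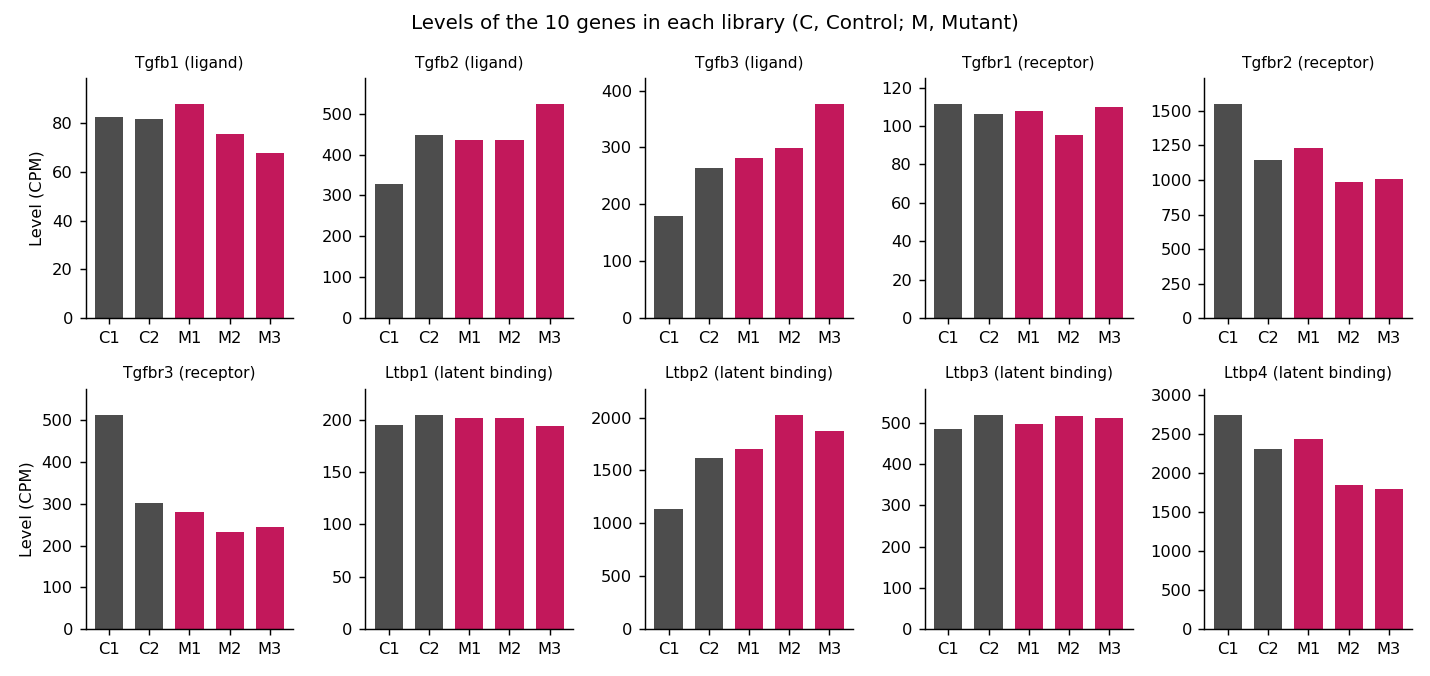
Level in CPM of each of the 10 genes, 1 bar per library, in the 2 Control (C1, C2) and 3 Mutant (M1 to M3) libraries, each panel with its own axis starting at 0. Tgfb3 and Ltbp2 are higher and Tgfbr3 is lower in every Mutant library than in either Control library, and C1 stands apart from C2 in these panels.

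Among the ligands, Tgfb3 was the one whose libraries separated by genotype. Tgfb3 is found at bases 86056745 to 86079041 of chromosome 12 (mm10, as for all positions here, minus strand), and its product is expressed in mesenchyme and epithelium of the developing lung. Its level was 179.6 and 263.8 CPM in Control libraries 1 and 2, and 282.3, 299.7 and 376.1 CPM in Mutant libraries 1 to 3. Every Mutant library was above both Control libraries, though Mutant library 1 was only slightly above Control library 2. The means were 222 ± 59.6 CPM (SD, n = 2) and 319 ± 49.9 CPM (SD, n = 3), which gave a log2 fold change of 0.53 (SE 0.19; edgeR unadjusted p = 0.0296, adjusted p = 0.372). The value was 0.27 without Control library 1 (edgeR unadjusted p = 0.195) and 0.82 without Control library 2 (edgeR unadjusted p = 0.00461). Without Mutant library 3 it was 0.39 (edgeR unadjusted p = 0.0911). With Xist as a covariate it was 0.50 (SE 0.24; edgeR unadjusted p = 0.0784). Of the exon bases of Tgfb3, 12.4% overlap genes annotated on the opposite strand, and the use of strand in counting was not given.

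Tgfb2, on chromosome 1 from 186622792 to 186705989 on the minus strand, encodes the ligand that binds TGFBR2 poorly unless TGFBR3 presents it. Its level was 329 and 448 CPM in Control libraries, and 436, 437 and 523 CPM in Mutant libraries. Control library 1 was low and Mutant library 3 high, and the other 3 libraries lay together, so the genotypes overlapped. The log2 fold change was 0.26 (SE 0.16; edgeR adjusted p = 0.516), and it was 0.050 without Control library 1 and 0.49 without Control library 2 (edgeR unadjusted p = 0.0202). Tgfb1, on chromosome 7 from 25687002 to 25705077 on the plus strand, encodes the ligand best known from fibrosis and immune regulation. It had 82.6 and 81.5 CPM in Control libraries, and 87.8, 75.5 and 67.8 CPM in Mutant libraries. The Control values lay inside the Mutant range, and the log2 fold change was -0.09 (SE 0.12; edgeR adjusted p = 0.775).

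Summed per length, the ligands came to 126 and 171 CPM per kb in Control libraries, and to 176, 179 and 215 CPM per kb in Mutant libraries. Tgfb3 made up 42.1% and 45.5% of this sum in Control libraries and 47.4%, 49.5% and 51.7% in Mutant libraries. Tgfb2 made up 44.95% and 45.1% in Control libraries and 42.0% to 42.7% in Mutant libraries. Thus Tgfb3 and Tgfb2 formed most of the ligand mRNA in every library, and their order depends on length, since the mean level of Tgfb2 was above that of Tgfb3 with the longest transcript in place of all exons. The share of Tgfb1 was 13.0% and 9.42% in Control libraries, and 9.88%, 8.36% and 6.25% in Mutant libraries. These shares depend on the exon lengths used and are a description, with no test.

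Tgfbr3 had the smallest p of the 10 genes. It encodes betaglycan, a membrane proteoglycan that presents ligand, TGF-beta 2 above all, to the signaling receptors, and that as a shed soluble form can hold ligand back. It is encoded on the minus strand of chromosome 5 between bases 107106570 and 107289629. Its level was 513.6 and 301.2 CPM in Control libraries, and 280.2, 232.9 and 245.6 CPM in Mutant libraries. All Mutant libraries lay below both Control libraries, with Control library 1 far above the other 4. The means were 407 ± 150 CPM (SD, n = 2) and 253 ± 24.5 CPM (SD, n = 3), which gave a log2 fold change of -0.69 (SE 0.21; edgeR unadjusted p = 0.0137, adjusted p = 0.354). DESeq2 gave an adjusted p of 0.0793, the lowest of 10 alternatives of the processing, which reached up to 0.404. The value was -0.26 without Control library 1 (edgeR unadjusted p = 0.121) and -1.03 without Control library 2 (edgeR unadjusted p = 0.000221, adjusted p = 0.0539). Among the markers, Tcf21 encodes a transcription factor of matrix and lipid-storing lung fibroblasts. It had 1662 and 1168 CPM in Control libraries and 902 to 1003 CPM in Mutant libraries. A relation of Tcf21 to the level of Tgfbr3 was not tested. Over the whole list of 10 lipofibroblast and matrix fibroblast markers, which holds Tcf21, 1 was lower at an unadjusted p under 0.05, as were 6.75% of all genes. Of the 10, 7 had a negative and 3 a positive log2 fold change, and the median was -0.09.

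The signaling receptors did not separate by genotype. Tgfbr2, on chromosome 9 from 116084293 to 116175360 on the minus strand, encodes the type II receptor. It had 1548 and 1143 CPM in Control libraries, and 1234, 987 and 1006 CPM in Mutant libraries. Mutant library 1 lay between the Control libraries, and the other Mutant libraries lay below them. The log2 fold change was -0.32 (SE 0.17; edgeR adjusted p = 0.466). It was -0.09 without Control library 1, -0.54 without Control library 2 (edgeR unadjusted p = 0.0175) and -0.44 without Mutant library 1 (edgeR unadjusted p = 0.0337). Tgfbr1, on chromosome 4 from 47353222 to 47414931 on the plus strand, encodes the type I receptor kinase. It had 111.4 and 106.5 CPM in Control libraries, and 107.8, 95.4 and 109.6 CPM in Mutant libraries. All but Mutant library 2 lay close together, and the log2 fold change was -0.06 (SE 0.10; edgeR adjusted p = 0.813), with its sign turned to 0.0086 when libraries were scaled by their totals.

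The summed receptor level was 285 and 202 CPM per kb in Control libraries, and 210.05, 171 and 177 CPM per kb in Mutant libraries. Mutant library 1 was again between the Control libraries. Tgfbr2 made up 66.4% to 71.8% of the sum in all 5 libraries. Tgfbr3 made up 27.6% and 22.8% in Control libraries and 20.4%, 20.8% and 21.2% in Mutant libraries, and Tgfbr1 5.99% to 9.47% in all. Mutant libraries therefore had a lower share of betaglycan than either Control library, while the type II receptor was the main receptor mRNA in each.

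**Figure D3:**
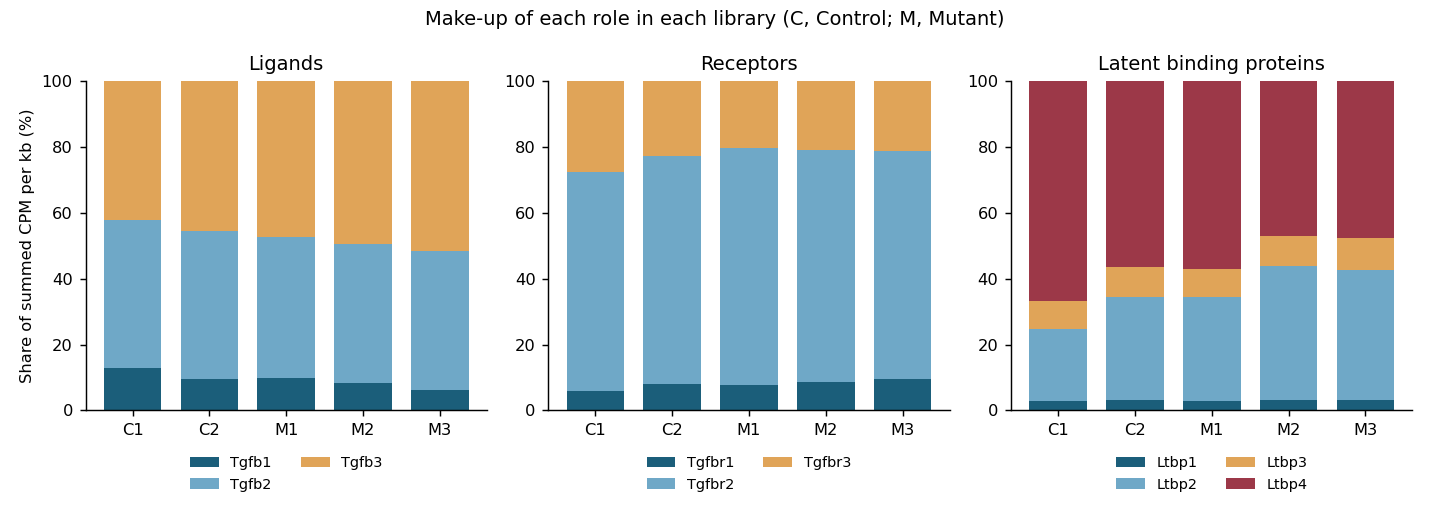
Share of each gene in the summed CPM per kb of its role (ligands, receptors, latent binding proteins), 1 stacked bar per library for 2 Control (C1, C2) and 3 Mutant (M1 to M3) libraries. The share of Ltbp2 is 21.9% in C1 and 40.6% in M2 and that of Ltbp4 66.8% and 46.9%, with C2 and M1 nearly equal to each other.

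Ltbp2 and Ltbp4, the latent binding proteins with the highest levels, had log2 fold changes of opposite sign. The stretches before their annotated starts are shown with their matches to CAGAC, the SMAD-binding element, searched on both strands (reverse complement GTCTG). Both were read from the RefSeq promoter table of GRCm38.p6 and are on the minus strand, Ltbp2 at chr12:84876533-84876741 and Ltbp4 at chr7:27337693-27337862, written 5′ to 3′ with each match in capitals.
Ltbp2: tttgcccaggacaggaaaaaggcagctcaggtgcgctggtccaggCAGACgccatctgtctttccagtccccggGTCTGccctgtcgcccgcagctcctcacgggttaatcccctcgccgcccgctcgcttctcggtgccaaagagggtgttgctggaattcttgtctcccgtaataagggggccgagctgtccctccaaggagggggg
Ltbp4: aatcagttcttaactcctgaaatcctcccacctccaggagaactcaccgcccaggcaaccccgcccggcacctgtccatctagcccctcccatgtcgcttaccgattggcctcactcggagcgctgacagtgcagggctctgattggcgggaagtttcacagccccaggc
Ltbp2 held 1 CAGAC and 1 GTCTG in these 209 bases, a stretch in which 37.1% of all RefSeq promoters hold at least 1 match. Ltbp4 held none in 170 bases, where 31.8% of promoters hold a match. Ltbp4 has further annotated starts inside the gene, and only the stretch before the outermost is shown. In the whole windows of 300 bases around each start, the table had 8 of the 10 genes, all but Tgfb3 and Tgfbr3, and 6 of the 8 had a match at some start, beside 49.6% of 32851 promoters. A GC box (GGGCGG, both strands) was found for 4 of the 8 and in 35.7% of promoters, and TATAAA for 1 of the 8, Tgfb2, and in 13.6% of promoters. Genes with several annotated starts had more than 1 window in which to hold a match, and a match describes letters, not a bound site. Genes with a match had log2 fold changes of both signs, such as Tgfb2 (0.26) and Tgfbr2 (-0.32). A link between the matches and the fold changes was not tested.

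LTBP2 binds fibrillin and elastic fiber proteins and, unlike the other LTBPs, does not bind latent TGF-beta. Ltbp2 lies on chromosome 12 from 84783212 to 84876532 on the minus strand, 1.18 Mb from Tgfb3. Its libraries held 1137 and 1619 CPM in Control libraries, and 1703, 2026 and 1874 CPM in Mutant libraries. The Mutant libraries were all above the Control libraries, with Mutant library 1 close to Control library 2. The means were 1378 ± 341 CPM (SD, n = 2) and 1868 ± 162 CPM (SD, n = 3), which gave a log2 fold change of 0.44 (SE 0.18; edgeR unadjusted p = 0.0422, adjusted p = 0.398). The value was 0.20 without Control library 1 (edgeR unadjusted p = 0.260) and 0.71 without Control library 2 (edgeR unadjusted p = 0.00485), and its unadjusted edgeR p was 0.124 without Mutant library 2 and 0.107 without Mutant library 3. An antisense gene, D030025P21Rik, covers 9.34% of its exon bases.

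Ltbp4 lies on chromosome 7 from 27305136 to 27337692 on the minus strand, 1.60 Mb from Tgfb1. It had 2740 and 2308 CPM in Control libraries, and 2429, 1847 and 1795 CPM in Mutant libraries. Mutant library 1 lay between the Control libraries, so the genotypes overlapped, while Mutant libraries 2 and 3 lay below all others. The means were 2524 ± 305 CPM (SD, n = 2) and 2024 ± 352 CPM (SD, n = 3), which gave a log2 fold change of -0.32 (SE 0.17; edgeR unadjusted p = 0.109, adjusted p = 0.475). It was -0.20 without Control library 1 (edgeR unadjusted p = 0.373) and -0.45 without Control library 2 (edgeR unadjusted p = 0.0662). Without Mutant library 1, 2 or 3 it was -0.48 (edgeR unadjusted p = 0.0107), -0.26 or -0.24.

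The remaining latent binding proteins had log2 fold changes near 0. Ltbp1, on chromosome 17 from 75005568 to 75392512 on the plus strand, encodes an LTBP that carries latent TGF-beta into the matrix, and had 194.6 and 204.7 CPM in Control libraries and 201.7, 201.7 and 194.1 CPM in Mutant libraries. Its log2 fold change was -0.0032 (SE 0.091; edgeR adjusted p = 0.992), and the sign changed with the scaling. Ltbp3, on chromosome 19 from 5740904 to 5758532 on the plus strand, encodes another carrier of the latent complex, and had 484 and 519.6 CPM in Control libraries and 498, 517.7 and 512.5 CPM in Mutant libraries. Its log2 fold change was 0.02 (SE 0.10; edgeR adjusted p = 0.940). For both genes, the 5 libraries spanned a narrow range in which the genotypes overlapped.

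The summed level of the 4 LTBP genes was 634 and 631 CPM per kb in Control libraries, and 658, 609 and 581 CPM per kb in Mutant libraries. The makeup of this sum varied between libraries. Ltbp2 made up 21.9% and 31.3% in Control libraries, and 31.6%, 40.6% and 39.4% in Mutant libraries. Ltbp4 made up 66.8% and 56.6% in Control libraries, and 57.1%, 46.9% and 47.8% in Mutant libraries. Control library 2 and Mutant library 1 were nearly equal in these shares, with Control library 1 on one side and Mutant libraries 2 and 3 on the other. Ltbp1 (2.87% to 3.12%) and Ltbp3 (8.35% to 9.72%) made up the rest.

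**Figure D4:**
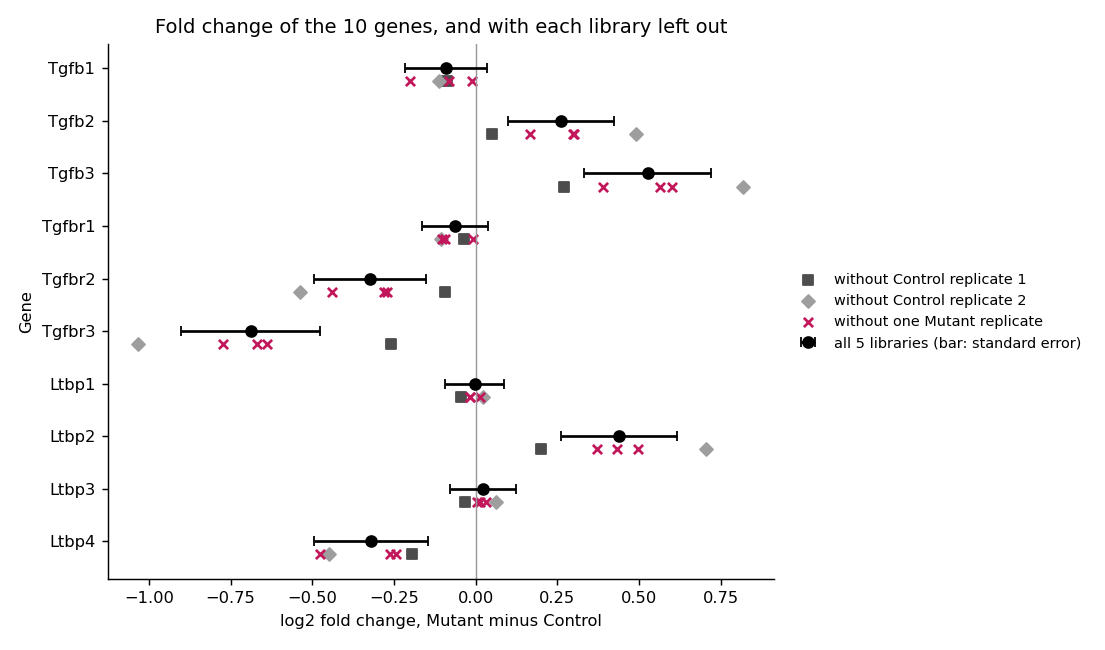
Log2 fold change, Mutant against Control, of each of the 10 genes from all 5 libraries (black point, bar = SE) and from the fits with 1 library left out (squares and diamonds, a Control library; crosses, a Mutant library). Leaving out Control library 1 moves Tgfb3 from 0.53 to 0.27, Tgfbr3 from -0.69 to -0.26 and Ltbp2 from 0.44 to 0.20, toward 0, and leaving out Control library 2 moves them away from it.

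For the 3 genes with the smallest p, the genes most like them over the 5 libraries were found by the root-mean-square difference of mean-centred log2 CPM. For Tgfbr3 these were Slit1 (0.010), Fam49a (0.047) and Rtn2 (0.050). For Tgfb3 they were Sh3rf3 (0.050), Kdelr3 (0.052) and Art5 (0.058), and for Ltbp2 they were Ldoc1l (0.019), Tmem201 (0.022) and Prokr1 (0.034). Among the other 9 genes, Tgfb2 stood at place 198 and Ltbp2 at place 225 in likeness to Tgfb3, and Tgfbr2 at place 375 in likeness to Tgfbr3. With 5 libraries, of which Control library 1 lay farthest out, many genes share such a pattern. Several of the listed genes had a larger edgeR unadjusted p than the member they resembled. These were Slit1 (0.104), Fam49a (0.0193), Rtn2 (0.0149), Art5 (0.292), Tmem201 (0.0464) and Prokr1 (0.196).

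The other genes of the pathway were read from 7 lists, 66 genes in all. The lists were chosen with earlier results of these data known, so their share beside that of all genes is a description, not a test. Of these, 14 (21.2%) had an unadjusted p under 0.05, 10 lower and 4 higher (10 and 8 with libraries scaled by their totals), beside 12.4% of all genes, and none passed adjustment in edgeR. DESeq2 called 6 of the 66 at an adjusted p under 0.05: Acta2, Bhlhe40, Junb, Pmepa1, Thbs1 and Tsc22d1. It called 1.7% of all genes to which it gave an adjusted p. The median log2 fold change of the 66 was -0.07. Without Control library 1, the log2 fold changes of the 6 genes that DESeq2 called were smaller in size. They were 0.47 for Acta2, -0.46 for Bhlhe40, -0.37 for Junb, 0.47 for Pmepa1, -0.79 for Thbs1 and -0.50 for Tsc22d1.

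Of the 13 activators and anchors of latent TGF-beta, 1 was lower and 1 higher at an unadjusted p under 0.05 (median -0.05), beside 6.75% lower and 5.65% higher over all genes. Thbs1 encodes thrombospondin-1, which can release TGF-beta from its propeptide, and had 7193 and 6062 CPM in Control libraries and 4876, 2622 and 3103 CPM in Mutant libraries. All Mutant libraries were below both Control libraries, a log2 fold change of -0.91 (SE 0.26; edgeR unadjusted p = 0.0102, adjusted p = 0.354). Itgb8, which encodes a subunit of the TGF-beta activating integrin alpha-v beta-8, had 2.56 and 3.93 CPM in Control libraries and 4.11, 5.58 and 8.13 CPM in Mutant libraries. This was a log2 fold change of 0.87 (SE 0.35; edgeR unadjusted p = 0.0389, adjusted p = 0.395) at a low level, and 0.59 without Control library 1.

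Of the 5 genes for matrix that holds the latent complex, 4 had a negative log2 fold change (median -0.47). An unadjusted p under 0.05 was found for 2 of the 5 in edgeR and 4 in DESeq2, beside 12.4% and 13.2% of all genes. Fbn2 encodes the microfibril protein fibrillin-2, and its level was 174 and 186 CPM in Control libraries and 154, 125 and 112 CPM in Mutant libraries (log2 fold change -0.47; edgeR unadjusted p = 0.0124). Tgm2 encodes a transglutaminase that cross-links matrix proteins, and its level was 642 and 285 CPM in Control libraries and 297, 198 and 212 CPM in Mutant libraries. Control library 1 set most of that difference, since the log2 fold change of Tgm2 was -0.98 with all libraries and -0.28 without it. Of the 4 proteoglycans that bind TGF-beta, none had an unadjusted p under 0.05 in edgeR, and 1, Dcn, did in DESeq2. With the replicate block 1, Aspn, did, and with Xist as a covariate 2 did, beside 13.4% and 11.4% of all genes. The smallest p in edgeR were those of Dcn (decorin, log2 fold change -0.42, edgeR unadjusted p = 0.0624) and Aspn (asporin, -0.23, edgeR unadjusted p = 0.176).

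Among the signal transducers, none of the 4 genes had an unadjusted p under 0.05 in edgeR or DESeq2 (median 0.07). With libraries scaled by their totals 2 did, beside 13.6% of all genes. Smad3 had 152 and 175 CPM in Control libraries and 183, 189 and 197 CPM in Mutant libraries (log2 fold change 0.22; edgeR unadjusted p = 0.0743). Smad2 had 60.0 and 69.7 CPM in Control libraries and 72.6, 73.8 and 77.8 CPM in Mutant libraries (log2 fold change 0.21; edgeR unadjusted p = 0.0903). For both receptor SMADs every Mutant library lay above the Control libraries, by little in the nearest pair, as for 16% of all genes. Smad4, of the same list, went the other way, with 155 and 142 CPM in Control libraries and 139, 130 and 134 CPM in Mutant libraries. Its log2 fold change was -0.14, and 14.9% of all genes were lower without overlap. Without Control library 1 the log2 fold change was 0.11 for Smad3, 0.10 for Smad2 and -0.08 for Smad4. The accessory receptors endoglin (Eng, log2 fold change 0.27, edgeR unadjusted p = 0.0716) and ALK1 (Acvrl1, -0.09, edgeR unadjusted p = 0.524) did not pass either. Eng passed with the replicate block (0.33; edgeR unadjusted p = 0.0367), and 1 of the 2 genes did with library totals or with Xist as a covariate.

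Of the 12 inhibitors, 1 was lower and 1 higher at an unadjusted p under 0.05 (median 0.05), beside 12.4% of all genes in either direction. With library totals 0 were lower and 2 higher, beside 13.6% of all genes in either direction. Pmepa1, a TGF-beta induced membrane protein that holds back receptor SMADs, had 222 and 240 CPM in Control libraries and 307, 313 and 380 CPM in Mutant libraries. The Control libraries lay close together and all Mutant libraries were above them, with a log2 fold change of 0.53 (SE 0.13; edgeR unadjusted p = 0.00404, adjusted p = 0.354) that stayed between 0.42 and 0.58 with any library left out. Bambi, a decoy receptor without a kinase, had 63.6 and 58.4 CPM in Control libraries and 53.6, 47.0 and 49.0 CPM in Mutant libraries (log2 fold change -0.29; edgeR unadjusted p = 0.0248).

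The 30 genes commonly induced through SMADs had members on both sides. At an unadjusted p under 0.05, 6 were lower and 3 higher, and 19 of the 30 had a negative log2 fold change (median -0.10), beside 6.75% lower and 5.65% higher over all genes. Without Control library 1, 24 of the 30 had a negative log2 fold change (median -0.19, beside 0.014 over all genes). The 3 higher genes were Pmepa1 and the contractile genes Acta2 (log2 fold change 0.78) and Tagln (0.59). The 6 lower genes were Tsc22d1 (-0.73), Bhlhe40 (-0.66), Cdkn1a (-0.64), Lox (-0.63), Junb (-0.54) and Nox4 (-0.43). Without Control library 1 the value was -0.30 for Cdkn1a, -0.33 for Lox, -0.19 for Nox4, 0.47 for Acta2 and 0.32 for Tagln. Of these, Lox encodes the lysyl oxidase that cross-links collagen and elastin, Cdkn1a a cell cycle inhibitor, and Junb and Bhlhe40 transcription factors that many stimuli induce. Acta2 and Tagln are also myofibroblast markers. Of the 12 markers of that list, 5 were higher and 1 lower at an unadjusted p under 0.05 (median 0.38). The summed level of the 12 was 21256 and 15462 CPM in Control libraries 1 and 2, and 14240 to 16881 CPM in Mutant libraries. Acta2 and Tagln had 407 and 295 CPM in Control library 1, so that sum rested mostly on other genes of the list. The part of myofibroblast numbers in these values was not tested. Pcsk7 and another gene on the opposite strand cover 67.9% of the exon bases of Tagln.

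**Figure D5:**
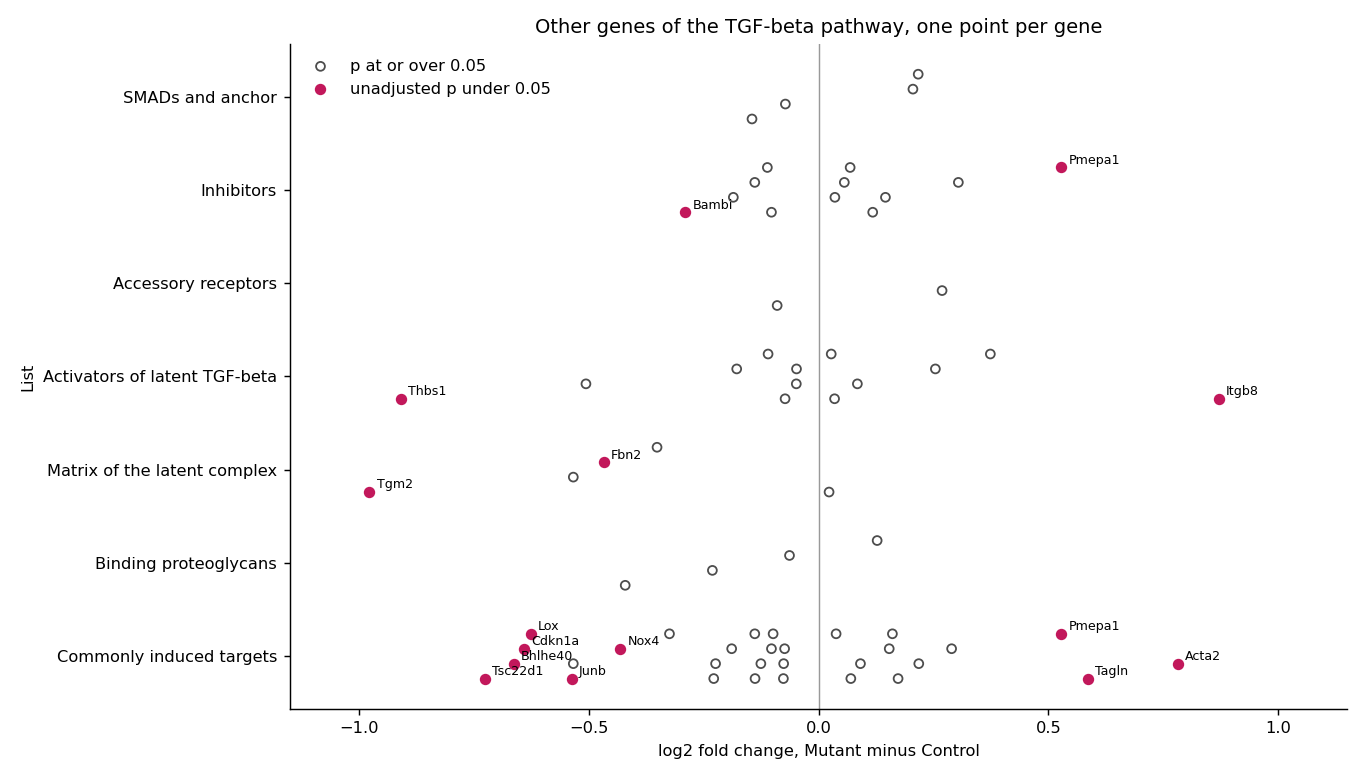
Log2 fold change, Mutant against Control, of the 66 other pathway genes, 1 point per gene in each of 7 lists (filled, unadjusted edgeR p under 0.05; open, the rest). Pmepa1, on 2 of the lists, and Acta2, Tagln and Itgb8 lie to the right, and most other filled points lie to the left, with Thbs1 at -0.91 and Tgm2 at -0.98 farthest.

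Markers of other cell types were read beside these values. The 13 hematopoietic markers all had a negative log2 fold change (median -0.81). Of these, 4 were lower at an unadjusted p under 0.05, as were 6.75% of all genes. Their summed level was 626 and 449 CPM in Control libraries and 510, 359 and 226 CPM in Mutant libraries, so these groups overlapped, and none of the 13 was at 0 in any library. The summed level of 13 epithelial markers was 1070 to 1150 CPM in Control libraries and 525 to 1157 CPM in Mutant libraries, and that of 12 endothelial markers 589 to 608 CPM and 291 to 829 CPM. The 6 mesothelial markers summed to 444 to 450 CPM and 341 to 454 CPM, the 8 pericyte markers to 568 to 615 CPM and 538 to 611 CPM, and the 10 lipofibroblast and matrix fibroblast markers to 11752 to 12084 CPM and 10148 to 11373 CPM. Whether such cells contributed to the levels of the TGF-beta genes was not tested.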

How the data were processed

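The authors prepared RNA-Seq libraries from sorted GFP-positive lung cells with a NEBNext Ultra kit and sequenced as 150-bp read pairs. Reads were trimmed with Trim Galore and aligned to mm10 with Bowtie2, and the authors deposited raw counts per gene symbol from Bioconductor's GenomicAlignments, without normalization. The annotation and the use of strand are not given in the sources used here. Groups came from the sample labels. The two-sided quasi-likelihood F test of edgeR 4.0.16 (in R 4.3.3, with limma 3.58.1) was applied to the counts with TMM factors and filterByExpr, and with genotype alone in the model. P-values of 15298 genes were adjusted by the Benjamini-Hochberg method. With 2 libraries against 3, an exact permutation test cannot go below p = 0.1, so none was used. Exon lengths, positions and overlaps came from GENCODE M21 (22114 of 23478 symbols matched directly and 1027 by an older symbol). A prior count of 2 went into log2 CPM.

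The 10 genes and the lists were chosen with earlier results of these data known. Named are the 10 genes, the genes of each other list with an unadjusted p under 0.05 or, with none, the 2 with the smallest p, the 3 genes most like each of 3 members, Igf1r and the defining markers. Smad4 and the overlapping genes were named after their values were seen. Alternatives were DESeq2 1.42.0, limma voom, 3 other scalings, 2 filters, robust empirical Bayes, a replicate block, Xist as a covariate and leaving out each library. The criterion of the study was added after the data were seen.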

Additional observations from a re-analysis of the deposited data

How the results depend on the processing

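None of the 10 genes had an adjusted p under 0.05 in any of the 10 alternatives or with any library left out. The smallest and largest adjusted p over the 10 alternatives were 0.0793 and 0.404 for Tgfbr3, 0.174 and 0.475 for Tgfb3, and 0.197 and 0.431 for Ltbp2. With 1 library left out, the number of the 10 genes with an unadjusted p under 0.05 ran from 0 (without Control library 1, where the lone Control library is assumed to vary like the others) to 5 (without Control library 2 or Mutant library 1), and was 1 without Mutant library 3. For the 66 other pathway genes it ran from 6 to 20, and libraries scaled by their totals gave 18 (10 lower, 8 higher). That scaling moved the calls over all genes from 1032 lower and 865 higher to 744 lower and 1343 higher. The sign turned for Tgfbr1 with library totals (0.0086), for Ltbp1 with library totals (0.070), upper-quartile factors (0.0066), a replicate block (0.015) and Xist as a covariate (0.016), and with a library left out for Ltbp1 (-0.044 to 0.023) and Ltbp3 (-0.034 to 0.063); the cause was not tested. With Xist as a covariate, 2 of the 10 genes had an unadjusted p under 0.05, beside 11.4% of all genes. Tgfb3, at 0.50 (SE 0.24) beside 0.53 (SE 0.19) without it, did not (edgeR unadjusted p = 0.0784). With the longest transcript as length, 5 of 10 genes kept their place in the order of levels.

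Libraries 1 and 2 of both genotypes share replicate numbers. Same-numbered libraries deviated from their group means with correlations of 0.358 and 0.259 over 9101 genes. With 2 Control libraries, the deviation of 1 is the exact opposite of the other, so these correlations are not separate evidence. With 2 pairs the numbers count only as shared numbers. With the replicate block, 3 of the 10 genes (1 lower, 2 higher) and 17 of the 66 (11 lower, 6 higher) had an unadjusted p under 0.05, beside 13.4% of all genes. An adjusted p under 0.05 was reached by 136 of all genes and by none of the 10. Mutant library 3 alone held its replicate number, so it added nothing to the genotype effect in this fit. The spread in that fit was thus measured from few values, and its p-values need care.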
